A study of Mus musculus with 16 samples.

Results

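The autophagy machinery genes are 39 of the 55487 genes in the count table. They were chosen by name, for what their proteins do in autophagy, and all 39 were found in the table and passed the filter on low counts. They comprise 5 genes of the initiation complex, 6 of the class III PI3K complex and its partners, 5 for lipid supply, 11 for conjugation and the ATG4 proteases, 5 of the ATG8 family, 4 cargo receptors, and Vmp1, Epg5 and Rubcn. RNA-sequencing was performed on 16 samples of BMDMs, macrophages derived in culture from the bone marrow of mice. All samples came from wild-type Balb/c mice of 8 weeks.

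The samples form 6 groups. DMEM (n = 2) holds BMDMs in culture medium without tumor factors. CM (n = 3) holds BMDMs in conditioned media of 4T1 cells, a mouse mammary tumor cell line. DMEM + Rux (n = 3) had ruxolitinib, an inhibitor of the kinases JAK1 and JAK2, in DMEM, at a dose that its label does not give. CM + Rux 4 h (n = 3) and CM + Rux 2 h (n = 2) had ruxolitinib at 0.5 μM in CM. CM + Rux + IKK-16 (n = 3) had, beside that dose of ruxolitinib in CM, IKK-16 at 0.8 μM, which inhibits IKK kinases and so the activation of NF-κB. The study's methods give a treatment of 4 h and do not explain the label of 2 h. The comparisons address how conditioned media of tumor cells change macrophages and which of these changes depend on JAK or on IKK activity. Nothing in the labels says that replicates came from separate mice or cultures, so p-values measure the spread between these samples, which may be technical.

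Autophagy encloses parts of the cytoplasm in a membrane that closes into an autophagosome and fuses with lysosomes. The ULK1 kinase complex starts the process, the class III PI3K complex marks the membrane with a lipid, and ATG9 vesicles and ATG2 supply lipids for its growth. Conjugating enzymes then attach ATG8 proteins to the membrane, and receptors tie cargo to them. In macrophages the same proteins also serve the removal of microbes and damaged organelles and temper inflammatory signalling.

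The depth was 18449388 to 46215853 counted fragments per sample, and the lowest count of any of the 39 genes in a sample was 45. The 8 macrophage markers were all above 1 CPM in every group (CPM gives a gene's count at the same total in every sample), with sums of 33969 to 45111 CPM per sample. Lyz2 made up most of each sum (31324 to 37018 CPM as group means), so the sums say little of the other markers. Itgam was called higher in CM against DMEM (0.99) and lower in CM + Rux + IKK-16 against CM (-0.65), Csf1r was called lower in CM against DMEM (-0.61), and Mertk was called lower in CM + Rux 4 h against CM (-1.71). Mertk was also lower in CM + Rux + IKK-16 against CM (-0.95), in CM + Rux 4 h against CM + Rux 2 h (-1.25) and in the interaction described below (-1.95). Another of the macrophage markers was called higher in CM + Rux 4 h against CM + Rux 2 h (0.88). Over the whole epithelial list, the 6 markers summed to at most 1.50 CPM, highest in CM (0.977 to 1.50 CPM) and lowest in DMEM (0.0409 to 0.118 CPM), with Krt14 at 0 counts in every group. The 5 dendritic cell markers summed to 8.59 to 12.7 CPM in CM + Rux 2 h and to 0.785 to 2.36 CPM in the other groups. Zbtb46 made this difference, with 10.1 ± 3.05 CPM in CM + Rux 2 h and group means of at most 1.90 CPM elsewhere, while in CM + Rux 2 h Flt3 was at 0 counts and Xcr1 and Clec9a had means of 0.0138 and 0.0276 CPM. The 5 fibroblast markers summed to 14.9 to 32.7 CPM, with Pdgfrb higher in CM + Rux 4 h than in CM + Rux 2 h (0.86) and lower in CM + Rux + IKK-16 than in CM + Rux 4 h (-0.94). The B cell markers summed to at most 1.23 CPM, and Cd79b among them was lower in CM than in DMEM (-2.95) and higher in CM + Rux + IKK-16 than in CM (1.55). The part of these markers in the results below was not tested. In bulk RNA, fewer cells of a type and less RNA per cell cannot be told apart.

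Levels per gene length differed widely among the autophagy genes. Gabarap, an ATG8 protein, had the highest level, with 213 ± 1.18 CPM per kb of exons in DMEM (SD, n = 2), followed by Gabarapl1 with 73.0 ± 3.03 CPM per kb. Vmp1, Map1lc3b, Nbr1 and Gabarapl2 came next. Their mean levels ranged from 20.3 to 25.1 CPM per kb, and Vmp1 (25.1 ± 3.89 CPM per kb) and Map1lc3b (23.9 ± 0.43 CPM per kb) did not differ beyond their spread. Atg10, which encodes an enzyme of ATG12 conjugation, was the lowest, at 2.04 ± 0.253 CPM per kb. In CM the order changed at several places. Vmp1 stood at 59.2 ± 5.23 CPM per kb (SD, n = 3) beside 56.0 ± 5.26 CPM per kb of Gabarapl1, again within their spread, and Tax1bp1 at 39.3 ± 3.14 CPM per kb.

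**Figure D1:**
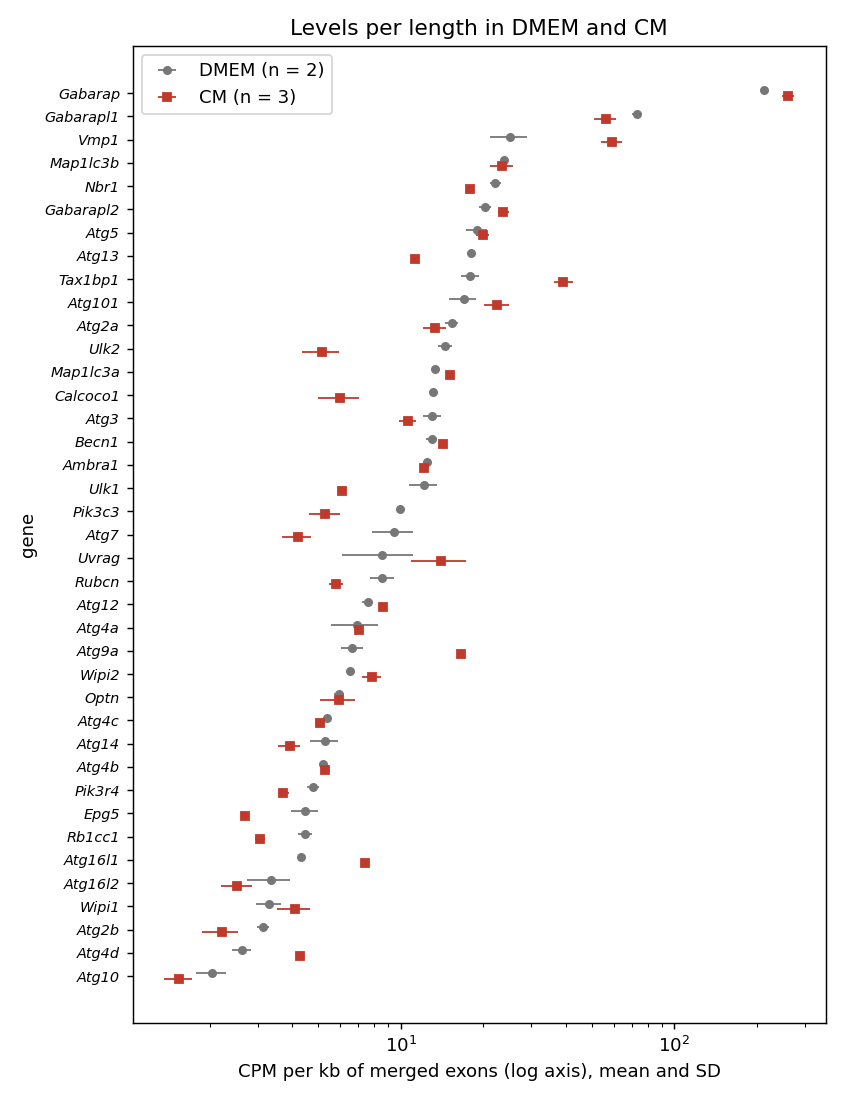
Mean CPM per kb of exons of the 39 genes (log axis) in DMEM (circles, n = 2) and CM (squares, n = 3), with SD bars and genes ordered by their level in DMEM. Gabarap is the highest in both groups, and Vmp1, Tax1bp1 and Atg9a lie to the right of their DMEM values in CM while Ulk2, Calcoco1, Ulk1 and Atg7 lie to the left.

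Over the 6 groups, 33 of the 39 genes (84.6%) differed at an adjusted p-value under 0.05 in edgeR's quasi-likelihood test, against 78.4% of the 12372 genes tested. The other 6 were Ambra1, Wipi2, Atg2a, Atg4a, Atg4b and Map1lc3a. In the comparisons between groups, genes are called changed at an adjusted p-value under 0.05 with a log2 fold change above 0.5 or below -0.5. By this rule 21 of the 39 genes changed in at least 1 of 7 comparisons, and 54.9% of all genes tested did.

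**Figure D2:**
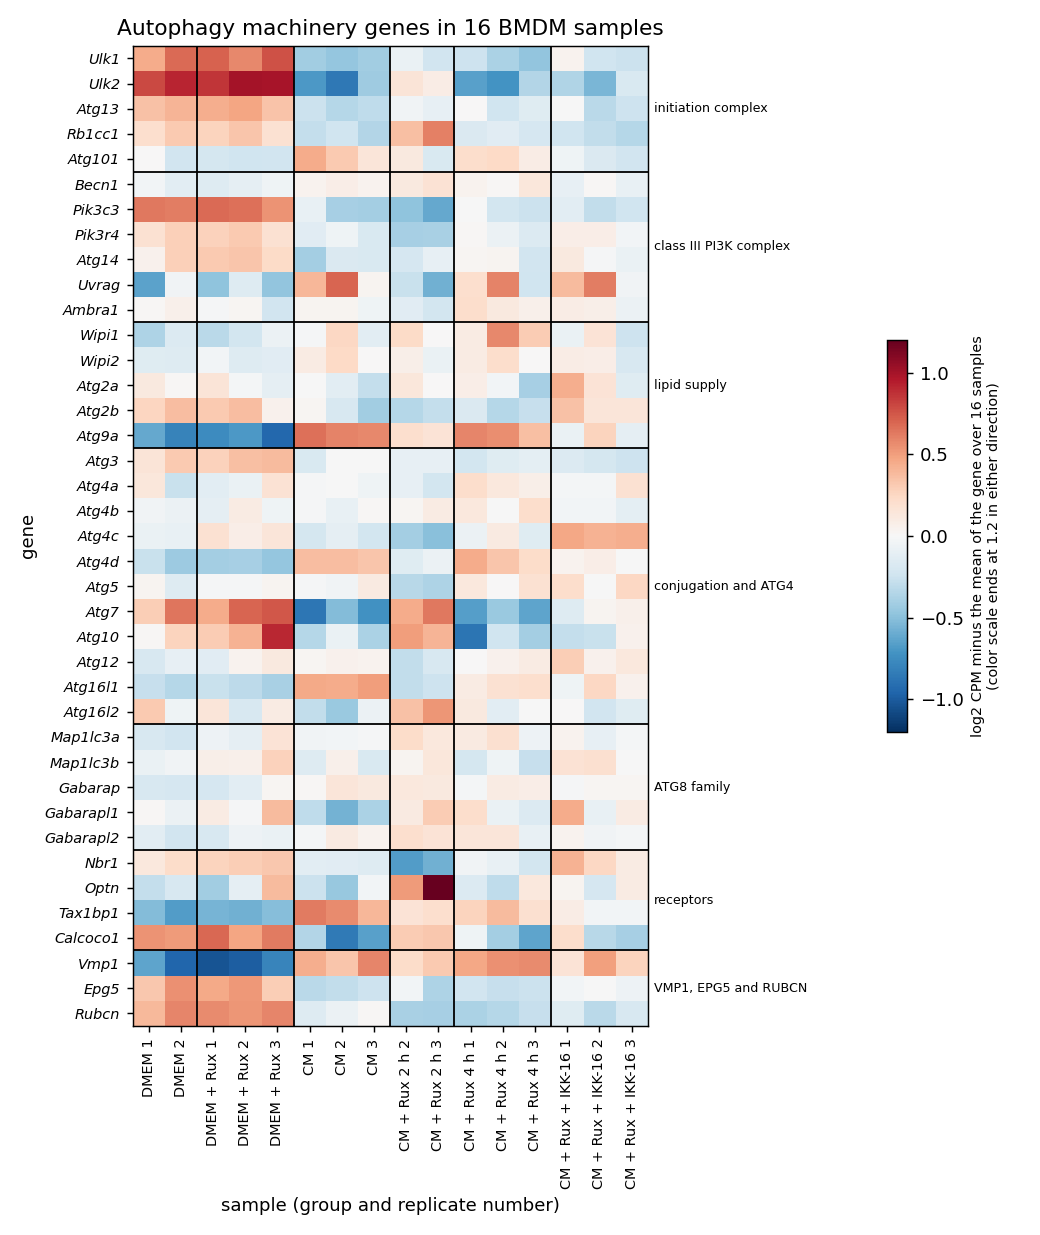
Level of each of the 39 genes (rows, grouped by role) in each of the 16 samples (columns, by group and replicate number), as log2 CPM minus the mean of the gene over all samples. The 5 samples without CM share high levels of Ulk1, Ulk2, Pik3c3 and Calcoco1 and low levels of Atg9a, Tax1bp1 and Vmp1. The 2 CM + Rux 2 h samples stand apart from the other samples with CM for Optn, Rb1cc1, Atg7 and Nbr1.

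CM against DMEM addresses the response of macrophages to tumor factors. Of the 39 genes, 6 were higher (15.4%) and 10 lower (25.6%) in CM, against 20.9% higher and 24.1% lower among all genes tested. The median log2 fold change was -0.03 over the 39 genes and -0.005 over all genes tested. The groups did not overlap for 33 of the 39 genes, and for 74.8% of all genes tested. By adjusted p-value alone 10 genes were higher and 16 lower, against 31.4% and 30.4% of all genes tested. These counts depend on the scaling: with total counts only, 3 genes were higher and 18 lower. Scaling by relative log expression (RLE), the one used here, shifted the median gene by 0.31 relative to total counts. The shares of all genes tested were not counted with total counts only, for any comparison. The 3 and 18 therefore cannot be set against the shares above. The genes called lower only with total counts were Pik3r4, Atg14, Atg2a, Atg3, Atg10, Atg16l2, Gabarapl1 and Nbr1. Their log2 fold changes were then -0.51 (Atg2a) to -0.73 (Atg14). No called gene changed direction between the 2 scalings.

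The counts by role that follow stand beside 20.9% of all genes tested called higher and 24.1% called lower. In the initiation complex, 4 of 5 genes were lower. Ulk2 encodes a kinase that shares the role of ULK1. It had 83.2 and 90.6 CPM in DMEM and 86.7, 95.5 and 95.0 CPM in DMEM + Rux. It had 29.8, 26.5 and 35.8 CPM in CM, 30.5, 29.1 and 37.6 CPM in CM + Rux 4 h, 53.3 and 51.1 CPM in CM + Rux 2 h, and 37.3, 32.7 and 42.3 CPM in CM + Rux + IKK-16. All 5 samples without CM were above all 11 samples with CM. In CM against DMEM, Ulk2 fell by 1.50 ± 0.13 on the log2 scale (SE, adjusted p = 5.04e-07). Ulk1, the main kinase of the complex, had 72.3 and 85.5 CPM in DMEM and 87.0, 79.4 and 90.4 CPM in DMEM + Rux. It had 39.9, 38.5 and 39.8 CPM in CM, 44.7, 40.8 and 38.3 CPM in CM + Rux 4 h, 50.4 and 45.3 CPM in CM + Rux 2 h, and 55.0, 45.1 and 44.5 CPM in CM + Rux + IKK-16. Again the samples with and without CM did not overlap. Ulk1 fell by 1.0 ± 0.11 on the log2 scale in CM (SE, adjusted p = 2.32e-06). Its gene lies on the minus strand at chr5:110784488-110810097 (GRCm38), and Ulk2 on the minus strand at chr11:61775649-61855073.

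The scaffold genes of the complex fell by less. Atg13, which links the kinases to the scaffold, had a log2 fold change of -0.68 ± 0.09 (SE, adjusted p = 2.26e-05). Rb1cc1, which encodes the scaffold FIP200, had one of -0.55 ± 0.08 (adjusted p = 3.56e-05), which became -0.49 and fell short of the fold change threshold without DMEM replicate 2. Atg101, whose protein stabilises ATG13, had the opposite sign, with 27.1 ± 3.09 CPM in DMEM (SD, n = 2) and 35.9 ± 3.74 CPM in CM (SD, n = 3). Its log2 fold change of 0.41 (adjusted p = 0.00517) did not reach the fold change threshold, and was 0.09 with total counts only.

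Of the 6 genes of the class III PI3K complex, 1 was lower and 1 higher. Pik3c3, the lipid kinase itself, dropped from 44.5 ± 0.256 CPM in DMEM to 23.6 ± 3.08 CPM in CM, a log2 fold change of -0.92 ± 0.10 (SE, adjusted p = 4.87e-06). Its regulatory subunit Pik3r4 and the autophagy-specific subunit Atg14 had log2 fold changes of -0.36 and -0.42 (adjusted p = 8.76e-04 and 0.00414), below the fold change threshold. Becn1, the core subunit Beclin 1, had 91.8 ± 4.14 CPM in DMEM and 101 ± 1.43 CPM in CM and did not pass the test (adjusted p = 0.0738). Ambra1, a partner of Beclin 1, did not pass either (adjusted p = 0.758).

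Uvrag, which replaces Atg14 in a second form of the complex, varied strongly between replicates. It had 61.4 and 93.3 CPM in DMEM and 127, 156 and 98.2 CPM in CM. The groups did not overlap, but the lowest CM sample, replicate 3, lay close to the higher DMEM sample, replicate 2. DMEM has no replicate 3, and replicate 2 was the highest in each of the 6 groups. Its log2 fold change was 0.72 ± 0.27 (SE, adjusted p = 0.0297). The call was lost without CM replicate 1 (adjusted p = 0.0521), CM replicate 2 (adjusted p = 0.108) or DMEM replicate 1 (0.44, adjusted p = 0.256), and with total counts only (0.40, adjusted p = 0.155). Over the alternatives its adjusted p-value ranged from 2.26e-05 to 0.256.

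Among the genes of lipid supply, Atg9a had the largest rise of the 39 genes. It encodes the membrane protein of the vesicles that seed the autophagosome and lies on the minus strand at chr1:75180860-75192196. It had 40.8 and 35.9 CPM in DMEM and 37.0, 38.8 and 32.5 CPM in DMEM + Rux. It had 98.9, 94.6 and 93.2 CPM in CM, 93.6, 92.0 and 80.1 CPM in CM + Rux 4 h, 72.0 and 70.0 CPM in CM + Rux 2 h, and 59.2, 75.0 and 57.9 CPM in CM + Rux + IKK-16. Every sample with CM was above every sample without it, and the samples with IKK-16 were below those of CM and CM + Rux 4 h. In CM against DMEM the log2 fold change was 1.32 ± 0.12 (SE, adjusted p = 6.01e-07), which is 2.49-fold.

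Atg2b, a lipid transfer protein, was lower by a narrow margin, with a log2 fold change of -0.51 ± 0.12 (SE, adjusted p = 0.00249). With the replicate number as a block it was -0.46 (adjusted p = 8.98e-04), short of the fold change threshold. It was also short of it without CM replicate 3 (-0.40) and without DMEM replicate 2 (-0.45). Over the alternatives its adjusted p-value ranged from 1.47e-04 to 0.0285. Its paralog Atg2a had 118 ± 6.21 CPM in DMEM and 103 ± 10 CPM in CM (adjusted p = 0.281). The WIPI genes encode proteins that bind the lipid made by the PI3K complex. Wipi1 had a log2 fold change of 0.31 (adjusted p = 0.109, and 0.0211 with the replicate block), and Wipi2 one of 0.27 (adjusted p = 0.0293) that was -0.05 with total counts only.

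Conjugation was the largest group, with 2 of 11 genes higher and 1 lower. Atg7 encodes the enzyme that activates both ATG8 and ATG12 for conjugation, and lies on the plus strand at chr6:114643097-114860614. It had 58.0 and 74.0 CPM in DMEM and 64.7, 77.1 and 79.3 CPM in DMEM + Rux. It had 26.0, 33.0 and 28.6 CPM in CM, 29.9, 34.9 and 30.5 CPM in CM + Rux 4 h, 64.5 and 73.6 CPM in CM + Rux 2 h, and 42.7, 48.6 and 49.3 CPM in CM + Rux + IKK-16. The CM and CM + Rux 4 h samples were the lowest, the samples with IKK-16 lay between them and the DMEM samples, and the CM + Rux 2 h samples lay within the range of DMEM. In CM against DMEM, Atg7 fell by 1.17 ± 0.13 on the log2 scale (SE, adjusted p = 3.85e-06).

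Atg16l1 and Atg4d were the conjugation genes that rose. Atg16l1, which directs conjugation to the membrane, went from 41.6 ± 1.19 CPM in DMEM to 71.1 ± 1.51 CPM in CM, a log2 fold change of 0.77 ± 0.08 (SE, adjusted p = 2.53e-06). Atg4d, a protease that removes ATG8 from membranes, went from 19.0 ± 1.56 to 31.1 ± 0.456 CPM, a log2 fold change of 0.71 ± 0.08 (adjusted p = 4.58e-06). With total counts only these values were 0.46 and 0.40, under the fold change threshold. Among the 8 other genes of conjugation, Atg3 and Atg16l2 passed the adjusted p-value alone, with log2 fold changes of -0.30 and -0.41. Atg4a, Atg4b, Atg4c, Atg5, Atg10 and Atg12 did not, with log2 fold changes of -0.39 (Atg10, whose adjusted p-value was 0.0417 with the replicate block) to 0.18 (Atg12).

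No gene of the ATG8 family was called with RLE scaling. Gabarap had 393 ± 2.18 CPM in DMEM and 481 ± 23.8 CPM in CM (log2 fold change 0.29, adjusted p = 0.00479), and Gabarapl2 had one of 0.22 (adjusted p = 0.0277). Both changed sign with total counts only, to -0.02 and -0.09. Gabarapl1 had a log2 fold change of -0.38 (adjusted p = 0.0466), and was called lower with total counts only (-0.69, adjusted p = 0.00334). Map1lc3b, the LC3 gene most used as an autophagy marker, had 180 ± 3.23 CPM in DMEM and 176 ± 16.4 CPM in CM (adjusted p = 0.821). With total counts only its log2 fold change was -0.34 (adjusted p = 0.00245). Map1lc3a had 15.7 ± 0.296 and 17.9 ± 0.181 CPM (adjusted p = 0.121).

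The receptors divided, with Tax1bp1 higher and Calcoco1 lower. Tax1bp1 encodes a receptor for ubiquitinated cargo that is also known as a brake on NF-κB signalling, and lies on the plus strand at chr6:52713729-52766780. It had 188 and 169.6 CPM in DMEM and 184, 181 and 189.8 CPM in DMEM + Rux. It had 418, 402 and 358 CPM in CM, 327, 353 and 309.7 CPM in CM + Rux 4 h, 303 and 312 CPM in CM + Rux 2 h, and 288, 265 and 265 CPM in CM + Rux + IKK-16. The samples with CM were all above those without it, with CM alone the highest and the samples with IKK-16 the lowest of them. In CM against DMEM its log2 fold change was 1.13 ± 0.09 (SE, adjusted p = 1.23e-07).

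Calcoco1 encodes a receptor for parts of the endoplasmic reticulum, on the minus strand at chr15:102706777-102722178. It had 76.0 and 74.7 CPM in DMEM and 84.2, 72.6 and 80.7 CPM in DMEM + Rux. It had 40.9, 29.1 and 33.4 CPM in CM, 50.5, 39.5 and 33.8 CPM in CM + Rux 4 h, 64.8 and 65.3 CPM in CM + Rux 2 h, and 60.6, 41.5 and 39.6 CPM in CM + Rux + IKK-16. All samples with CM were below all samples without it, and replicate 1 was the highest in each of the 3 groups with CM that have a replicate 1. In CM against DMEM it fell by 1.13 ± 0.19 on the log2 scale (SE, adjusted p = 1.31e-04). Nbr1, a receptor for ubiquitinated cargo, had a log2 fold change of -0.31 (adjusted p = 0.00553), and Optn, which encodes the receptor optineurin, had 22.4 ± 0.975 CPM in DMEM and 22.3 ± 3.30 CPM in CM (adjusted p = 0.989).

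All 3 remaining genes changed. Vmp1, a lipid scramblase of the endoplasmic reticulum needed for autophagosome formation, had 108 and 86.4 CPM in DMEM and 81.5, 84.4 and 96.7 CPM in DMEM + Rux. It had 226, 210.4 and 250.4 CPM in CM, 231, 244 and 247 CPM in CM + Rux 4 h, 195 and 208 CPM in CM + Rux 2 h, and 187, 236 and 201 CPM in CM + Rux + IKK-16. The samples with and without CM did not overlap, while the groups with CM overlapped each other, apart from CM + Rux 2 h, which was below CM and CM + Rux 4 h. Vmp1 rose by a log2 fold change of 1.24 ± 0.12 in CM against DMEM (SE, adjusted p = 1.26e-06), which is 2.36-fold. Epg5, a tether for fusion with lysosomes, went from 45.0 ± 5.04 to 27.1 ± 0.737 CPM, a log2 fold change of -0.73 ± 0.10 (adjusted p = 2.09e-05). Rubcn, whose protein Rubicon restrains the UVRAG form of the PI3K complex, went from 64.0 ± 6.40 to 43.4 ± 2.61 CPM. Its log2 fold change was -0.56 ± 0.08 (adjusted p = 3.18e-05), and -0.45 without DMEM replicate 2, short of the fold change threshold.

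**Figure D3:**
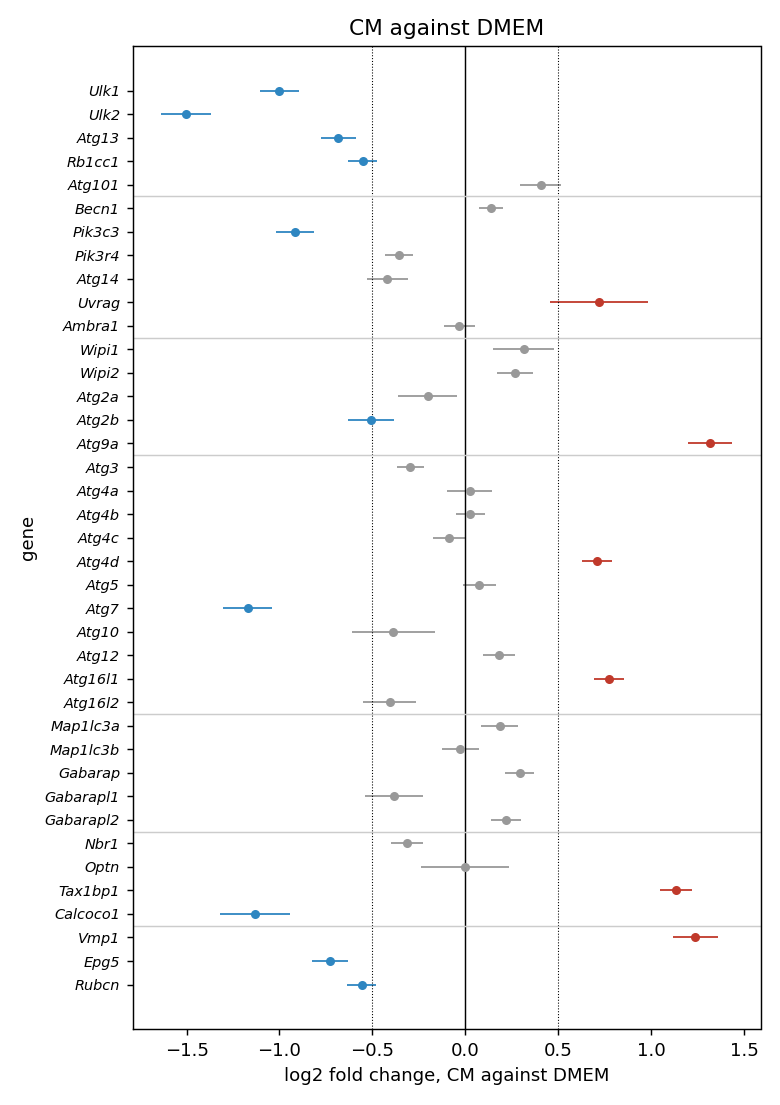
Log2 fold change of each of the 39 genes in CM (n = 3) against DMEM (n = 2), with bars of 1 standard error, dotted lines at the threshold of 0.5 and genes in the order of their roles. Colored points are the 6 genes called higher and the 10 called lower, with Atg9a at 1.32 and Ulk2 at -1.50 as the extremes.

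Called genes also differed in their length. The 10 genes that fell had a median span of 69.8 kb on the genome, the 6 that rose 44.8 kb and the 23 not called 29.8 kb. Among all genes tested the medians were 27.2 kb for those that fell, 20.7 kb for those that rose and 18.7 kb for those not called. The part of gene length in these results was not tested.

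The members' promoters were searched for the letters CACGTG, an E-box that reads the same on both strands. It is the core of the longer CLEAR element, which TFEB, a transcription factor of lysosomal and autophagy genes, is known to bind. Promoters of 300 bases (250 before to 50 after a RefSeq start site, GRCm38.p6) were found for 32 of the 39 genes, 39 promoters in all. CACGTG was in the promoters of 5 genes (12.8% of the 39 promoters) and in 7.15% of all 32851 promoters. The full palindromic CLEAR element, which holds those letters, was in 0 of the 39 and in 0.326% of all. The matches are shown with 10 bases on either side, the motif in capitals. They are in Atg7 and Rubcn, which were called lower in CM, and in Atg5, Atg14 and Atg3, which were not called. They lie at chr6:114670954-114670979 (plus strand, Atg7), chr10:44268315-44268340 (plus, Atg5), chr14:47568420-47568445 (minus, Atg14), chr16:32868439-32868464 (minus, Rubcn), and chr16:45158725-45158750 and chr16:45158748-45158773 (plus, both Atg3).
Atg7: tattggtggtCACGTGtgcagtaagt
Atg5: gagcgcttgcCACGTGgtcttggtga
Atg14: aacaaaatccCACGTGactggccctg
Rubcn: cctagcacatCACGTGtacccaggtt
Atg3, upstream match: ctccttttgtCACGTGtcctgggaga
Atg3, downstream match: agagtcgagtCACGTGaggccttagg
The RefSeq start sites of Atg7, Rubcn and Atg14 lie 27999, 9400 and 2215 bases inside the genes as they were counted. That of Atg5 lies 19 bases before the start of the counted gene, and that of Atg3 lies 44 bases past the start. A match is a description of these letters and not a site of binding. Tfeb, named here after its values were seen, had 69.3 ± 7.07 CPM in DMEM and 19.8 ± 4.57 CPM in CM, a log2 fold change of -1.80 ± 0.20 (SE, adjusted p = 4.64e-06). Tfe3, another of the upstream regulators counted below, was not called. Its log2 fold change was 0.21 (adjusted p = 0.0253), and -0.10 with total counts only (adjusted p = 0.342). The part of these factors in the results was not tested.

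Genes beyond the 39 were counted in 3 further lists. In CM against DMEM, the shares of all genes tested were 20.9% higher and 24.1% lower. Of 20 further autophagy factors, 19 were tested, with 3 higher and 6 lower in CM against DMEM. Bnip3, a receptor for mitochondria, had the largest rise of them (2.84 ± 0.20, adjusted p = 6.47e-08) and Tecpr1, a tether to lysosomes, the largest fall (-1.63 ± 0.16, adjusted p = 1.16e-06). Of 32 upstream regulators, 5 were higher and 12 lower. Ddit4 and Sesn1, both stress-induced inhibitors of mTORC1, stood at the ends. Ddit4 went from 1.73 ± 0.273 to 63.9 ± 20.3 CPM (log2 fold change 5.22 ± 0.42, adjusted p = 1.95e-07) and Sesn1 from 132 ± 56.1 to 6.32 ± 0.784 CPM (-4.38 ± 0.26, adjusted p = 1.51e-08). Of 13 genes of autophagosome-lysosome fusion, 1 was higher and 5 lower. The SNARE gene Ykt6 rose (1.07 ± 0.13, adjusted p = 7.00e-06), and Plekhm1, an adaptor of RAB7, fell the most (-2.32 ± 0.14, adjusted p = 2.14e-08). With total counts only, the 3 lists had 1, 2 and 1 genes higher and 8, 16 and 7 lower. The shares of all genes tested given above are those with RLE scaling.

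CM + Rux 4 h against CM addresses which of these levels depend on JAK activity, and 0 of the 39 genes were called in either direction. Among all genes tested, 1.2% were higher and 2.13% lower. DESeq2 also called 0. At an unadjusted p-value under 0.05, edgeR had 2 genes higher and 3 lower, none beyond the fold change threshold, against 7.26% and 8.03% of all genes tested. Log2 fold changes ranged from -0.30 to 0.42, and their median was 0.05, against 0.007 over all genes tested. This comparison shares the CM samples with CM against DMEM. Of the genes with the largest changes there, Ulk2 had a log2 fold change of 0.07 ± 0.12 (SE, adjusted p = 0.886), Atg9a one of -0.11 ± 0.10 (adjusted p = 0.736), Atg7 one of 0.12 ± 0.12 (adjusted p = 0.759) and Vmp1 one of 0.07 ± 0.10 (adjusted p = 0.863).

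Atg16l1 and Rubcn passed the adjusted p-value alone, both lower with ruxolitinib, against 1.82% of all genes tested higher and 2.74% lower by this rule. Atg16l1 had 70.4, 70.0 and 72.8 CPM in CM and 55.1, 58.5 and 59.2 CPM in CM + Rux 4 h, without overlap. Its log2 fold change was -0.30 ± 0.07 (SE, adjusted p = 0.0259). Rubcn had one of -0.27 ± 0.07 (adjusted p = 0.0475), with an adjusted p-value of 0.110 with total counts only. Tax1bp1, at -0.25 ± 0.07, missed the threshold (adjusted p = 0.0767), although its groups did not overlap either. With the replicate block, 2 genes were higher and 3 lower by adjusted p-value alone, against 662 and 823 of all 12372 genes tested. Gabarapl1 (0.42, adjusted p = 0.0184) and Atg16l2 (0.26, adjusted p = 0.0325) then passed on the higher side and Tax1bp1 (-0.25, adjusted p = 0.0216) on the lower side. Groups did not overlap for 8 of the 39 genes and for 19.2% of all genes tested. Of the further lists, Sqstm1 was the only gene called. It encodes the receptor p62 and went from 909 ± 64.7 CPM in CM to 1438 ± 339 CPM in CM + Rux 4 h (0.66 ± 0.18, adjusted p = 0.0483). With total counts only Sqstm1 was not called (0.69, adjusted p = 0.0598). Bcl2l1, an anti-apoptotic partner of Beclin 1, was then called lower (-0.73, adjusted p = 0.0307), as it was with the replicate block (-0.76, adjusted p = 4.88e-05), against an adjusted p-value of 0.0518 with RLE scaling. It was named after its values were seen.

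In medium without tumor factors, ruxolitinib gave 0 calls among the 39 genes, and 0% of all genes tested were called higher and 0.97% lower. By adjusted p-value alone 0 of the 39 genes differed, and 1.03% of all genes tested were lower. DESeq2 called 0 of the 39. At an unadjusted p-value under 0.05, edgeR had 2 genes higher, Atg4c and Map1lc3a, and 0 lower, against 1.46% and 3.73% of all genes tested. Log2 fold changes ranged from -0.15 to 0.43, the highest for Atg10. The effect of ruxolitinib in CM minus that in DMEM was tested as an interaction and was called for 0 of the 39 genes, against 0.234% of all genes tested with a positive and 0.178% with a negative difference. By adjusted p-value alone also 0 of the 39 differed, against 0.242% and 0.178% of all genes tested, and the lowest adjusted p-value was 0.222, for Rubcn. At an unadjusted p-value under 0.05, 5 genes had a negative difference and 0 a positive one, against 3.84% and 5.24% of all genes tested. Of the 5, Atg10 was also beyond the fold change threshold (-0.66 ± 0.30, adjusted p = 0.525). DESeq2 called 0.

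CM + Rux + IKK-16 was compared with CM + Rux 4 h and with CM. The first comparison differs by IKK-16 among the labelled agents and addresses the part of IKK. The second adds ruxolitinib and IKK-16 together and cannot separate them, since no group had IKK-16 without ruxolitinib. These comparisons share the CM + Rux + IKK-16 samples, and the second shares the CM samples with CM against DMEM, so their values are given side by side. Against CM + Rux 4 h, Atg7 was the only gene called, and it was higher. Among all genes tested 4.07% were higher and 3.66% lower. Atg7 rose from 31.8 ± 2.71 CPM in CM + Rux 4 h to 46.8 ± 3.64 CPM with IKK-16 (SD, n = 3 each), a log2 fold change of 0.56 ± 0.12 (SE, adjusted p = 0.00686). By adjusted p-value alone 5 genes were higher and 4 lower, against 6.72% and 7.65% of all genes tested. The others were Atg2b (0.48), Atg4c (0.47), Nbr1 (0.38) and Map1lc3b (0.30) on the higher side, and Atg9a (-0.47), Atg101 (-0.33), Atg4d (-0.30) and Tax1bp1 (-0.27) on the lower side. Without adjustment, 7 genes had a p-value under 0.05 on the higher side and 6 on the lower side, against 13.4% and 15.3% of all genes tested. Of these, Atg7 on the higher side and 0 on the lower side passed the fold change threshold, and DESeq2 called 0 lower. With total counts only, 3 genes were called higher and 0 lower. Leaving out CM + Rux 4 h replicate 1 or 2 or CM + Rux + IKK-16 replicate 2 or 3 gave 2 genes higher. Leaving out CM + Rux 4 h replicate 3 gave 1 gene lower, and leaving out CM + Rux + IKK-16 replicate 2 gave 2.

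Against CM, 3 genes were higher (7.69%) and 2 lower (5.13%), and among all genes tested 6.6% were higher and 6.13% lower. Atg7, with 29.2 ± 3.49 CPM in CM, had a log2 fold change of 0.68 ± 0.12 (SE, adjusted p = 0.00119). Atg4c encodes a protease that prepares ATG8 proteins for conjugation. It had 26.5, 25.6 and 26.0 CPM in CM + Rux + IKK-16 and 16.6, 17.8 and 16.5 CPM in CM. It had 18.3, 20.7 and 17.3 CPM in CM + Rux 4 h, 14.4 and 13.6 CPM in CM + Rux 2 h, 18.1 and 18.0 CPM in DMEM, and 21.8, 20.3 and 21.3 CPM in DMEM + Rux. The samples with IKK-16 were the highest of all 16 samples and the CM + Rux 2 h samples the lowest. Atg4c rose by a log2 fold change of 0.62 ± 0.08 against CM (SE, adjusted p = 8.49e-05).

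Gabarapl1 was the ATG8 gene with a call. It had 204, 141 and 161 CPM in CM + Rux + IKK-16, 122, 101 and 115 CPM in CM, and 174, 142 and 135 CPM in CM + Rux 4 h. It had 162 and 186 CPM in CM + Rux 2 h, 151 and 143 CPM in DMEM, and 161, 149 and 196 CPM in DMEM + Rux. CM alone held the 3 lowest samples, and the samples with IKK-16 overlapped every group but CM. Against CM + Rux 4 h it was not called (0.17, adjusted p = 0.477). Against CM its log2 fold change was 0.58 ± 0.14 (SE, adjusted p = 0.00945). Each sample with IKK-16 lay above the CM sample of the same number. The call was lost in 1 of 21 alternatives, without CM + Rux + IKK-16 replicate 1 (0.42, adjusted p = 0.0528). Over the alternatives its adjusted p-value ranged from 1.75e-04 to 0.0528.

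Atg9a and Tax1bp1, which rose in CM, were lower with ruxolitinib and IKK-16 than in CM. Atg9a had a log2 fold change of -0.58 ± 0.10 (SE, adjusted p = 0.00121) and Tax1bp1 one of -0.53 ± 0.07 (adjusted p = 2.51e-04). With total counts only they were -0.47 and -0.42, under the fold change threshold, which gave 6 genes higher and 0 lower. In this comparison the RLE scaling shifted the median gene by -0.11 relative to total counts. Without CM replicate 1, Tax1bp1 was at -0.48, and 5 genes were called higher and 1 lower. The groups did not overlap for 16 of the 39 genes and for 37.9% of all genes tested. By adjusted p-value alone 6 genes were higher and 5 lower, against 11% and 12.1% of all genes tested. Beside the called genes, Nbr1 (0.40), Atg2b (0.41) and Ulk1 (0.29) were higher, and Atg101 (-0.46), Atg16l1 (-0.38) and Atg4d (-0.32) lower. Ulk2 (0.29, adjusted p = 0.105), Calcoco1 (0.46, adjusted p = 0.0669), Vmp1 (-0.14, adjusted p = 0.371) and Pik3c3 (0.08, adjusted p = 0.615) did not pass. With the replicate block 12 genes were higher and 5 lower by adjusted p-value alone, against 2127 and 2354 of all 12372 genes tested. Those higher then included Ulk2 (0.29, adjusted p = 0.0257) and Calcoco1 (0.45, adjusted p = 0.00566), and also Atg2a, Epg5, Atg14 and Pik3r4, with log2 fold changes of 0.17 (Pik3r4) to 0.29 (Atg2a).

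**Figure D4:**
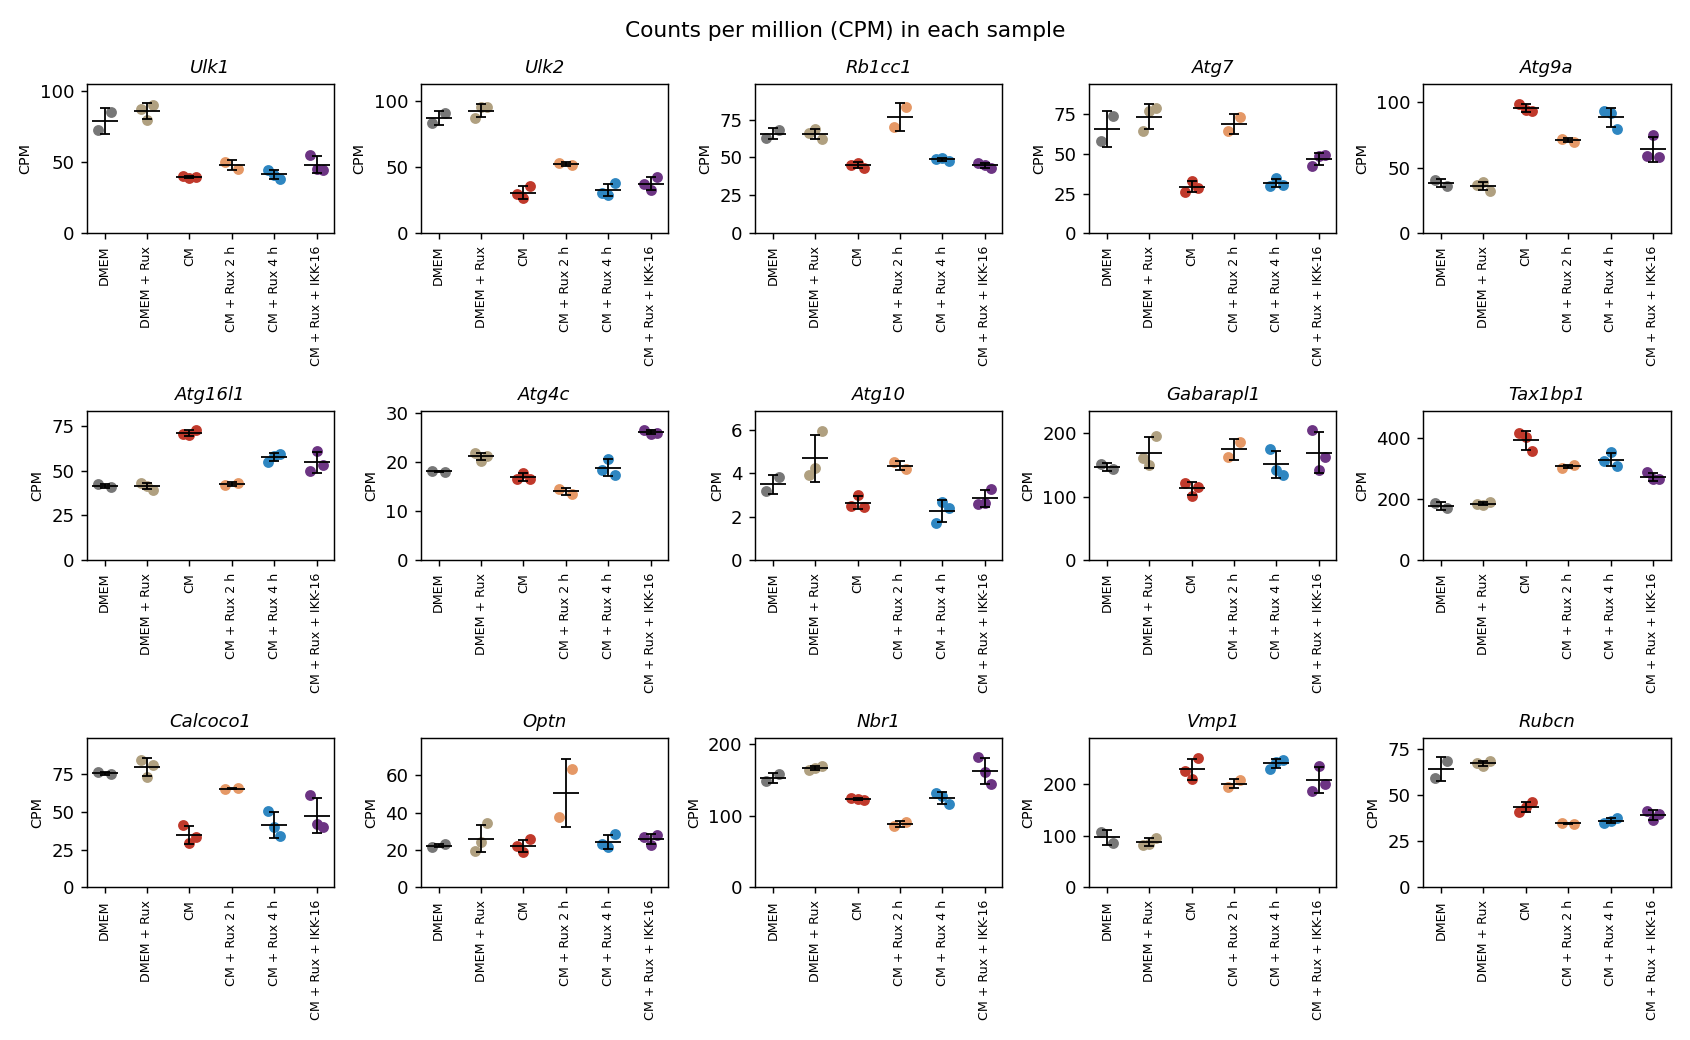
CPM of 15 of the genes in each sample (points), by group, with the mean (line) and SD (bars). The samples with IKK-16 are the highest for Atg4c and lie between CM and DMEM for Atg7, Atg9a and Tax1bp1, and the CM + Rux 2 h samples are the highest for Optn and Rb1cc1 and the lowest for Nbr1.

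The further lists were also counted in these comparisons. The shares of all genes tested were 4.07% higher and 3.66% lower against CM + Rux 4 h. Against CM they were 6.6% higher and 6.13% lower. Against CM + Rux 4 h, 5 of the 32 upstream regulators were higher and 2 lower with IKK-16. Fnip2, a partner of folliculin in nutrient signalling, had the largest rise (1.33 ± 0.19, adjusted p = 7.48e-04) and Ddit4 the largest fall (-1.58 ± 0.28, adjusted p = 0.00226). Of the further factors 2 were higher, led by Tecpr1 (0.79 ± 0.14, adjusted p = 0.00305), and Bnip3 was lower (-0.62 ± 0.16, adjusted p = 0.0165). Of the fusion genes 2 were higher, led by Plekhm1 (0.82 ± 0.13, adjusted p = 0.00117). Against CM the regulators had 6 genes higher and 2 lower, with Rragd, a Rag GTPase, at 1.30 ± 0.25 (adjusted p = 0.00209) and Ddit4 at -1.91 ± 0.28 (adjusted p = 3.02e-04). The further factors had 3 higher, led by Tecpr1 (1.13 ± 0.15, adjusted p = 1.23e-04), and Bnip3 lower (-0.67 ± 0.16, adjusted p = 0.00733). Plekhm1, at 0.83 ± 0.13 (adjusted p = 5.22e-04), led the 2 fusion genes that were higher.

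CM + Rux 4 h against CM + Rux 2 h sets the same labelled agents side by side at different labelled times. Of the 39 genes, 1 was higher at 4 h (2.56%) and 6 were lower (15.4%), and 10.7% of all genes tested were higher and 12.6% lower. The groups did not overlap for 26 of the 39 genes and for 59.6% of all genes tested. Atg7, with the values given above, had the largest difference, with 69.0 ± 6.44 CPM at 2 h (SD, n = 2) and a log2 fold change of -1.11 ± 0.13 (SE, adjusted p = 2.50e-05). Ulk2 followed the same order, with a log2 fold change of -0.69 ± 0.13 (adjusted p = 0.00120).

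Rb1cc1 had 70.4 and 83.3 CPM in CM + Rux 2 h, and 48.7, 49.9 and 47.8 CPM in CM + Rux 4 h. It had 44.8, 46.6 and 42.9 CPM in CM, 46.4, 44.7 and 43.3 CPM in CM + Rux + IKK-16, 63.0 and 68.4 CPM in DMEM, and 66.1, 68.9 and 62.3 CPM in DMEM + Rux. The 2 h samples were the highest of all 16. Rb1cc1 was lower at 4 h by a log2 fold change of -0.65 ± 0.08 (SE, adjusted p = 3.15e-05). Atg10 had 4.50 and 4.21 CPM in CM + Rux 2 h and 1.73, 2.69 and 2.39 CPM in CM + Rux 4 h. It had 2.50, 3.0 and 2.44 CPM in CM, 2.60, 2.63 and 3.29 CPM in CM + Rux + IKK-16, 3.19 and 3.81 CPM in DMEM, and 3.93, 4.22 and 5.93 CPM in DMEM + Rux. The 4 h samples were all below the 2 h samples, with a log2 fold change of -0.95 ± 0.22 (SE, adjusted p = 0.00423).

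The receptors Optn and Calcoco1 were lower and Nbr1 was higher at 4 h, and all 3 calls depended on a sample or a setting. Optn had 37.5 and 63.5 CPM in CM + Rux 2 h and 23.5, 21.4 and 28.7 CPM in CM + Rux 4 h. It had 22.0, 19.2 and 25.7 CPM in CM, 27.0, 23.0 and 28.2 CPM in CM + Rux + IKK-16, 21.7 and 23.0 CPM in DMEM, and 19.7, 24.5 and 34.2 CPM in DMEM + Rux. The 2 h samples were the highest of all and far from each other. The log2 fold change was -1.04 ± 0.23 (SE, adjusted p = 0.00289), and -0.62 (adjusted p = 0.0811) without CM + Rux 2 h replicate 3. Over the alternatives its adjusted p-value ranged from 3.39e-06 to 0.0811. Calcoco1 had a log2 fold change of -0.65 ± 0.19 (adjusted p = 0.0139). Its adjusted p-value was 0.0615 without CM + Rux 2 h replicate 2, 0.0660 without replicate 3 of that group and 0.0514 without CM + Rux 4 h replicate 3, in a range of 1.67e-04 to 0.0660 over the alternatives.

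Nbr1 had 84.8 and 90.8 CPM in CM + Rux 2 h, the lowest of all samples, and 131, 127 and 116 CPM in CM + Rux 4 h. It had 124, 123 and 121 CPM in CM, 181, 161 and 144 CPM in CM + Rux + IKK-16, 147 and 157 CPM in DMEM, and 163, 166 and 169 CPM in DMEM + Rux. The samples with IKK-16 overlapped DMEM and lay above CM and CM + Rux 4 h. Its log2 fold change at 4 h against 2 h was 0.51 ± 0.09 (SE, adjusted p = 5.16e-04), just past the fold change threshold. It fell short of the threshold with the replicate number as a block (0.49, adjusted p = 2.91e-04), with TMM normalization (0.495), without CM + Rux 2 h replicate 2 (0.46) and without CM + Rux 4 h replicate 1 (0.47) or 2 (0.497). Over the alternatives its adjusted p-value ranged from 9.54e-07 to 0.00996. The count of genes called higher was 0 with TMM normalization, without CM + Rux 2 h replicate 2 and without CM + Rux 4 h replicate 1, 2 without CM + Rux 4 h replicate 3, and 5 with total counts only. With the replicate block Uvrag was the gene called higher in place of Nbr1, at 0.63 (adjusted p = 6.89e-04), against 0.64 (adjusted p = 0.0716) without it.

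By adjusted p-value alone, 10 genes were higher and 7 lower at 4 h, against 20% and 18.2% of all genes tested. Atg5 (0.46), Atg4d (0.45), Atg16l1 (0.44), Atg4c (0.42) and Pik3c3 (0.39) were among those higher, and Atg16l2 (-0.44) was the other gene lower. With the fold change threshold, the shares of all genes tested were 10.7% higher and 12.6% lower. Of the further factors 2 were higher and 5 lower, with Bnip3 at 2.73 ± 0.20 (adjusted p = 5.75e-07) and Retreg1, a receptor for the endoplasmic reticulum, at -1.17 ± 0.12 (adjusted p = 1.02e-05). Of the regulators 5 were higher and 7 lower, with Sesn2, an inhibitor of mTORC1, at 1.72 ± 0.13 (adjusted p = 5.75e-07) and Deptor, a partner of mTOR, at -1.97 ± 0.16 (adjusted p = 1.23e-06). Of the fusion genes 1 was lower, Vps41 (-0.52 ± 0.08, adjusted p = 3.20e-04), which fell short of the fold change threshold with the replicate block (-0.48) and with total counts only (-0.45). Zbtb46, the dendritic cell marker given above, was also lower at 4 h (-2.41 ± 0.32, adjusted p = 7.97e-05), and its part in these results was not tested.

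**Figure D5:**
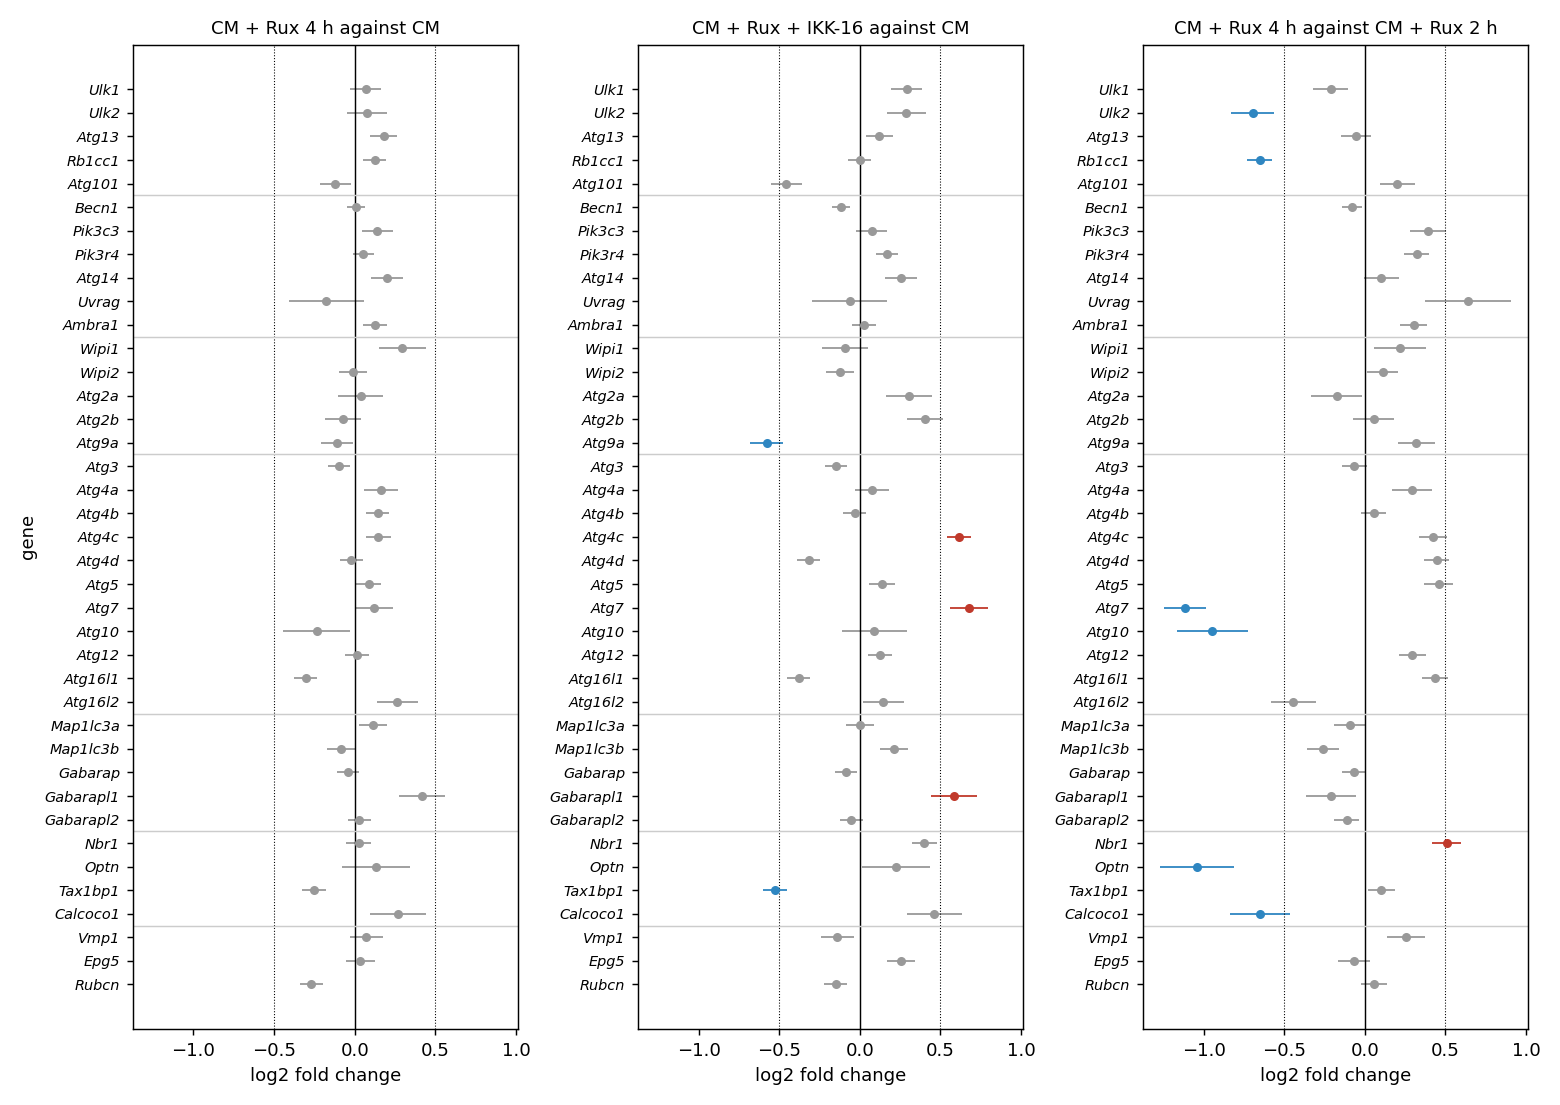
Log2 fold changes of the 39 genes with bars of 1 standard error. The left panel shows CM + Rux 4 h against CM, the middle panel CM + Rux + IKK-16 compared with CM, and the right panel CM + Rux 4 h against CM + Rux 2 h (n = 3 per group, 2 for CM + Rux 2 h), with dotted lines at 0.5. Colored points are called, with 0 in the left panel, 5 in the middle panel and 7 in the right panel.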

How the data were processed

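The deposited values are raw counts of fragments per gene, made by the authors from paired-end stranded mRNA libraries with Trimmomatic 0.33, HISAT2 2.1.0 (GRCm38) and featureCounts 1.6.2, without fragments of several alignments or genes, so near-identical copies can be undercounted. Symbols matched 55141 of 55487 identifiers, and the other 346 held at most 0.0459% of a sample's counts. Samples were grouped by their labels, and no samples were copies (chi-square per degree of freedom between replicates 13.2 to 50.3).

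The 12372 genes whose CPM exceeded 1 in 2 or more samples were tested with edgeR 4.0.16 in R 4.3.3, by the quasi-likelihood test on 1 model of all 16 samples and 6 groups, with RLE scaling and Benjamini-Hochberg adjustment over all genes tested. Where ± is given, it is the standard error of a log2 fold change, or the SD of a mean CPM on RLE-scaled totals. For edgeR that standard error is the size of the log2 fold change divided by the square root of the test's F statistic. Same-numbered samples of different groups deviated together from their group means, with r of 0.172 to 0.631 in all 18 pairs of the groups with 3 replicates. Over all 35 same-numbered pairs r was -0.000388 to 0.631, and over 71 pairs of different numbers -0.419 to 0.114. Deviations sum to 0 within a group, so positive r of same numbers brings negative r of different numbers by construction. The second range is thus no separate comparison. Since same-numbered samples deviated together, the block is given where it changed a call of the autophagy machinery genes. In the further lists and the markers it changed more calls than are given. With it, Sqstm1 in the interaction (0.83, adjusted p = 0.0151) was called higher. So was Tfeb in CM + Rux + IKK-16 against CM + Rux 4 h (0.54, adjusted p = 0.00311). In that comparison Tfec, also an upstream regulator, was called lower with the block (-0.62, adjusted p = 0.0104). Mitf, from the same list, was called lower there without the block (-0.80, adjusted p = 0.0190). Fcgr1 in CM + Rux 4 h against CM was called lower (-1.60, adjusted p = 7.54e-05). The alternatives were total counts only, TMM, no filter, DESeq2 1.42.0, the replicate block and each sample left out in turn. Values in every sample are given for genes called in CM against DMEM with a log2 fold change of at least 1 in size and for those called in any other comparison, and each further list names its largest rise and fall among calls. The members, lists and comparisons were chosen with earlier results of these data known. Tables and figures used Python 3.11.15, pandas 2.3.3, numpy 2.4.6 and matplotlib 3.10.9.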

Additional observations from a re-analysis of the deposited data

How the results depend on the processing

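Of 29 calls of the 39 genes over the comparisons, 17 kept their side of both thresholds under all 21 alternatives, and 0 reversed. With total counts only, a setting without counted shares of all genes tested, CM against DMEM had 3 genes higher and 18 lower in place of 6 and 10. That setting also gave CM + Rux + IKK-16 3 genes higher against CM + Rux 4 h in place of 1, and 6 higher and 0 lower against CM in place of 3 and 2. In CM + Rux 4 h against CM + Rux 2 h, 5 genes were higher with total counts only, 2 without the filter, 2 with DESeq2 and 0 with TMM, in place of 1. The replicate block lost the calls of Atg2b in CM against DMEM (-0.46) and of Nbr1 in CM + Rux 4 h against CM + Rux 2 h (0.49), and changed no other call of the 29. It added 1 call, Uvrag in the latter comparison (0.63).

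With each sample left out in turn, CM against DMEM had 5 to 6 genes higher and 8 to 11 lower. CM + Rux + IKK-16 had 1 to 2 higher and 0 to 2 lower against CM + Rux 4 h, and 2 to 5 higher and 1 to 3 lower against CM. CM + Rux 4 h against CM + Rux 2 h had 0 to 2 higher and 4 to 7 lower. Between 32 and 35 genes differed over the 6 groups, and 30 to 36 under the other alternatives. Where a group of 2 was left with 1 sample, that sample was assumed to vary like the other groups. Among the autophagy machinery genes, ruxolitinib gave 0 calls against CM, against DMEM and in the interaction under every alternative. The replicate block gave, by adjusted p-value alone, 2 genes higher and 3 lower in CM + Rux 4 h against CM in place of 0 and 2. It gave 12 higher in CM + Rux + IKK-16 against CM in place of 6. Among all genes tested the block gave 662 and 823 in place of 225 and 339, and 2127 in place of 1364.

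The lowest count of the 39 genes in a sample was 45, and replicates differed by more than counting error (chi-square per degree of freedom 13.2 to 50.3), so the spread between 2 or 3 replicates limits the precision more than the depth does.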
